A study of Mus musculus with 6 samples.

Results

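A set of 10 genes that set adult or foetal splicing in muscle were examined in the quadriceps of exercised and sedentary AR97Q mice. They are Mbnl1, Mbnl2 and Mbnl3 of the muscleblind family, Celf1 and Celf2 of the CELF family, Rbfox1 and Rbfox2 of the RBFOX family, and Rbm20, Rbm24 and Ptbp1. The genes were chosen by name, and their probes were found through the transcript accessions on the array. All 10 were measured, out of 44931 genes and transcripts on the array and 25005 that could be tested. In the exercise group Rbfox1 was 1.55-fold and Mbnl1 1.39-fold higher than in the sedentary group, and both passed an FDR of 0.05. None of the 10 was lower past this threshold, and over everything tested 11.5% were higher and 6.12% lower past it. Rbm20 and Rbfox2 had lower values on every exercise array but did not pass it, and the groups overlapped for the other 6. Groups that do not overlap, as for 4 of the 10, were found for 43.2% of everything tested. The calls of Rbfox1 and Mbnl1 were lost under some ways of scaling the arrays and when most single arrays were left out.

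AR97Q mice carry a human transgene with 97 CAG repeats on a C57BL/6J background and model spinal and bulbar muscular atrophy (SBMA), and every mouse measured here was a transgenic male. Mice of the exercise group (n = 3) ran on a forced wheel from 5 weeks of age and for 4 weeks, with 5 sessions a week of 60 min each at a speed of 5 m/min. Mice of the sedentary group (n = 3) were not trained. RNA of the quadriceps of each mouse was taken at 9 weeks and hybridized to 1 single-colour Agilent array, and no wild-type arrays are part of the comparison. The unscaled 75th percentile of the spot signal was 251 to 257 on the exercise arrays and 310 to 384 on the sedentary arrays, and 54.6 to 59.9% of the probes were well above background. All arrays were on 1 slide. A position number in the barcode of each array is called the strip here, although no label names it so. Strip 1 held the exercise arrays and that of sedentary mouse 1. Strip 2 held the arrays of sedentary mice 2 and 3, so that strip and group are partly confounded. Each value below is a log2 signal, the log2 of the probe's processed signal minus the array's own 75th percentile, so 0 means a probe as bright as that percentile.

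A primary transcript of muscle can be spliced in several ways, and the proteins encoded by these genes bind it near an alternative exon and favour or block its inclusion. After birth, muscle moves from foetal to adult splice forms of channels, calcium handling proteins and sarcomere proteins, a switch for which MBNL and RBFOX proteins promote adult forms and CELF1 promotes foetal ones. Loss of MBNL activity on expanded CUG repeats, with a rise of CELF1 protein, is the best known case in myotonic dystrophy. An array probe of this design reports how much transcript is present and not how an exon is spliced, nor how much protein is made.

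The start regions of the 2 genes that passed the threshold are shown because both have more than 1 start site and the probes do not tell which one was used. The windows span 300 bases around a RefSeq start site (RefSeq, GRCm38.p6). Capitals mark CANNTG, the general E-box core, which is its own reverse complement and is not particular to myogenic factors. The Mbnl1 windows lie on the plus strand at chr3:60472580-60472879 and chr3:60500929-60501228.
Mbnl1 window 1: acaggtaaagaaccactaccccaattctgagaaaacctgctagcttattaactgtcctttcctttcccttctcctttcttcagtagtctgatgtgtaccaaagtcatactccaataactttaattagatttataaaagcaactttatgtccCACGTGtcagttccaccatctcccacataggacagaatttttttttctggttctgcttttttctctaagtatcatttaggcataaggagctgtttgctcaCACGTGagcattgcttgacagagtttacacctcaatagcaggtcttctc
Mbnl1 window 2: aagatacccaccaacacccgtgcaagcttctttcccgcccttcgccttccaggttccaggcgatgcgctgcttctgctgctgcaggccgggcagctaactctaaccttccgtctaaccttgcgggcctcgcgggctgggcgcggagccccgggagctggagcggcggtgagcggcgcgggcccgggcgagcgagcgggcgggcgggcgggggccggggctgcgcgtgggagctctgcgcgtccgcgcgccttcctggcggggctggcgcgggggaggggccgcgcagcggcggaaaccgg
The Rbfox1 windows lie on the plus strand at chr16:5884543-5884842 and chr16:7069585-7069884.
Rbfox1 window 1: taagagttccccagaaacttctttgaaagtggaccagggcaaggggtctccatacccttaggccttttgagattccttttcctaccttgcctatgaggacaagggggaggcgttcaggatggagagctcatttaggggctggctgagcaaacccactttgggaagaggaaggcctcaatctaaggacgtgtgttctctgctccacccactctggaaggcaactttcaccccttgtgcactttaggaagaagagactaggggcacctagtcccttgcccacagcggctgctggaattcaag
Rbfox1 window 2: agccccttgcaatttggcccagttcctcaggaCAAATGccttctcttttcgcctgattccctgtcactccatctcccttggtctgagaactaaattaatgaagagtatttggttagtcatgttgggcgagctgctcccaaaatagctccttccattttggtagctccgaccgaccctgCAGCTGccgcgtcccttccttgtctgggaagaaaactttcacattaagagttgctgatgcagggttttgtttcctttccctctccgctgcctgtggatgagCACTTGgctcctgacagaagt
The letters CANNTG stood in the first Mbnl1 window 2 times and in the second Rbfox1 window 3 times, and the other window of each gene held none. Of 14 windows listed for 8 of the 10 genes, of which 2 Celf2 windows overlap, 9 held them, whereas 72.3% of 32851 mouse windows of the same length did. The letters CTA and TAG with any 4 bases between them stood in 0 of the 14 and in 3.69% of all windows. This pattern resembles the core of MEF2 sites but does not cover every form of it, and it also reads alike on both strands. The GC box GGGCGG, read on both strands and free to overlap CANNTG, stood in 6 of the 14 and in 35.7% of all windows. No window was listed for Rbfox2 or Rbm20. These matches describe letters and do not show that a factor was bound.

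Across the 10 genes, the log2 fold change of exercise against sedentary ran from -0.39 for Rbm20 to 0.63 for Rbfox1, with a median of 0.094 beside 0.026 for everything tested. At an FDR of 0.05 limma called 2 genes higher and 0 lower, where it called 11.5% of all genes and transcripts tested higher and 6.12% lower, or 17.6% in either direction. At an FDR of 0.1, 4 of the 10 passed, with Rbfox2 and Rbm20 as lower, beside 30.8% of all tested. At an unadjusted p under 0.05 there were 4 of the 10, beside 37% of all tested. The groups did not overlap for 4 genes, beside 43.2% of all tested, with 2 genes higher on every exercise array (25%) and 2 lower (18.2%). None of the 10 had an absolute log2 fold change of 1 or more, a size that, together with the FDR, 2.78% of all tested reached. With 10 genes these counts lay near the shares of the array as a whole, so the genes are described one by one.

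**Figure D1:**
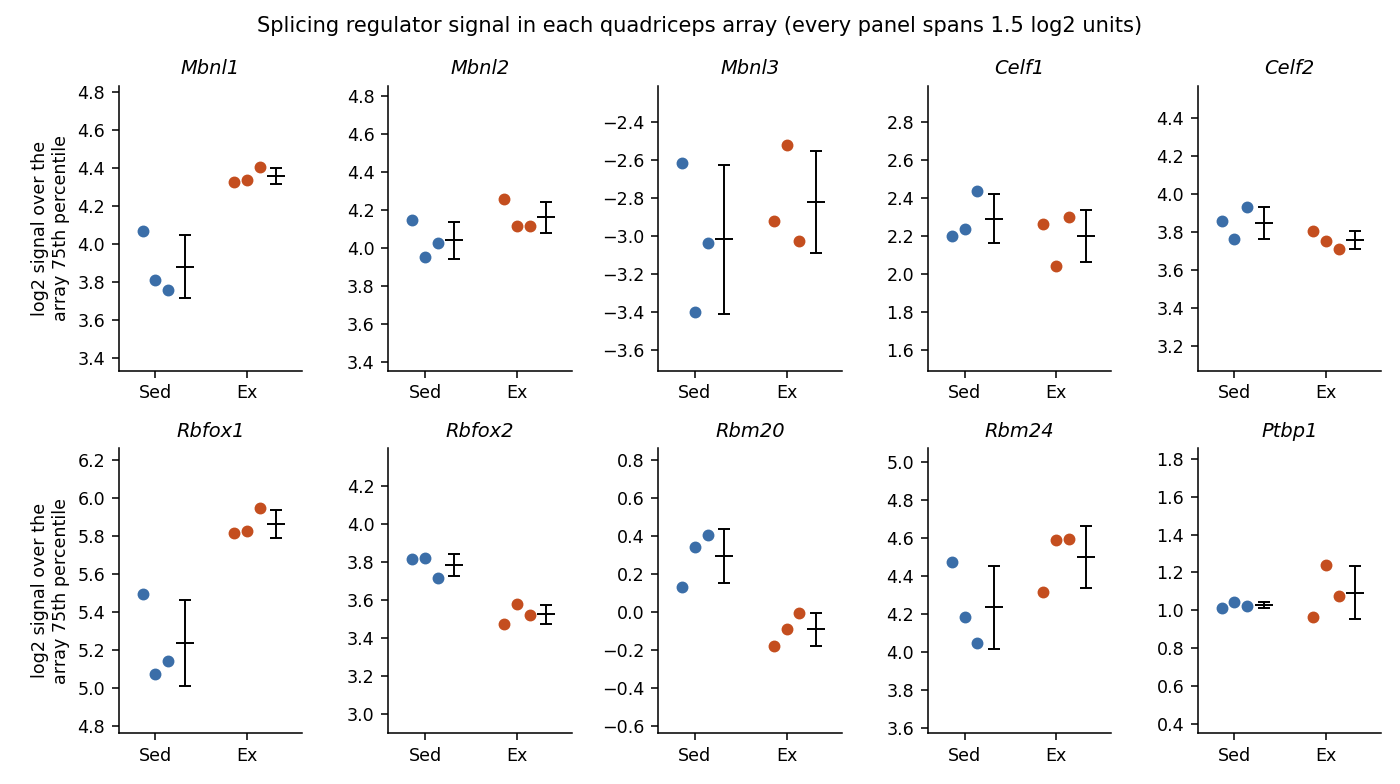
Log2 signal of the brightest probe of each of the 10 genes on every array, with sedentary (Sed) mice in blue, exercised (Ex) mice in orange, and the mean ± SD (n = 3) as black bars. The groups are apart and higher in exercise for Mbnl1 and Rbfox1, apart and lower for Rbfox2 and Rbm20, and overlapping for the rest.

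Among the muscleblind genes, Mbnl1 encodes the main MBNL protein of adult skeletal muscle. Its log2 signal was 4.33, 4.34 and 4.41 on the exercise arrays and 4.07, 3.81 and 3.76 on the sedentary arrays. The exercise arrays lay close together and all above the sedentary ones, of which mouse 1 was the highest. The means were 4.36 ± 0.042 and 3.88 ± 0.17 (SD, n = 3), a log2 fold change of 0.48 (standard error 0.11, 95% interval 0.21 to 0.74, limma adjusted p = 0.0354). In a bulk sample such as this, fewer cells of a type and less RNA per cell cannot be told apart.

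Mbnl2, whose protein shares targets with MBNL1 and is best known from the brain, had a log2 signal of 4.26, 4.12 and 4.11 with exercise and 4.14, 3.95 and 4.03 without. The groups overlapped, since sedentary mouse 1 exceeded exercise mice 2 and 3. The log2 fold change was 0.12 (standard error 0.094, 95% interval -0.11 to 0.35, limma adjusted p = 0.386) and turned negative with quantile normalization, in the deposited table and without scaling. Mbnl3, which is associated with immature and regenerating muscle cells, was dim at -2.92, -2.52 and -3.03 against -2.62, -3.40 and -3.04. Its values were scattered in both groups, with a log2 fold change of 0.20 (standard error 0.23, 95% interval -0.37 to 0.76, adjusted p = 0.571), and it turned negative without scaling and with the strip as a block. A further 2 Mbnl3 probes were not well above background on any array and were not tested. For Mbnl3 the interval is too wide to exclude a change as large as that of Mbnl1.

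CELF proteins act against MBNL proteins on part of the same exons. Celf1, the member whose protein falls after birth in muscle, had a log2 signal of 2.26, 2.04 and 2.30 with exercise and 2.20, 2.24 and 2.44 without. The values of the 2 groups were interleaved. The log2 fold change was -0.089 (standard error 0.11, 95% interval -0.36 to 0.19, limma adjusted p = 0.601). Celf2, a paralogue with high expression in brain and heart, had 3.80, 3.75 and 3.71 against 3.86, 3.76 and 3.93, again with overlap. Its log2 fold change was -0.093 (standard error 0.086, 95% interval -0.30 to 0.12, adjusted p = 0.465). The intervals of both CELF genes end below the log2 fold change measured for Mbnl1 and Rbfox1.

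RBFOX proteins bind the letters UGCAUG in introns next to alternative exons. Rbfox1, the member typical of neurons, heart and skeletal muscle, had a log2 signal of 5.82, 5.83 and 5.95 on the exercise arrays and 5.50, 5.07 and 5.14 on the sedentary arrays. As for Mbnl1, the exercise arrays were close together, all sedentary arrays were lower, and mouse 1 was the highest of these. The means were 5.87 ± 0.074 and 5.24 ± 0.23 (SD, n = 3), and the log2 fold change of 0.63 (standard error 0.13, 95% interval 0.31 to 0.95, limma adjusted p = 0.0310) was the largest of the 10 genes in size. Over everything tested, 85.2% had a smaller absolute change.

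Rbfox2, the more widely expressed paralogue, had a log2 signal of 3.47, 3.58 and 3.52 with exercise and 3.81, 3.82 and 3.72 without. Every exercise array lay below every sedentary array, and sedentary mouse 1 was here among the higher values. The means were 3.52 ± 0.051 and 3.78 ± 0.058 (SD, n = 3). The log2 fold change of -0.26 (standard error 0.081, 95% interval -0.46 to -0.062) did not pass the FDR (limma adjusted p = 0.0732). It passed with quantile normalization, at -0.40 (adjusted p = 0.0351), and in the deposited table, at -0.42 (adjusted p = 0.0306), whereas with the array median it was -0.17 (adjusted p = 0.387). It was negative under every scaling tried.

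RBM20 represses exons of titin and other sarcomere genes and is best known from the heart. Its gene had a log2 signal of -0.18, -0.088 and -0.0067 with exercise and 0.13, 0.34 and 0.40 without, so that all exercise arrays were below all sedentary arrays. The means were -0.092 ± 0.087 and 0.29 ± 0.14 (SD, n = 3), with a log2 fold change of -0.39 (standard error 0.11, 95% interval -0.64 to -0.13, limma adjusted p = 0.0546). Without sedentary mouse 1 it was -0.46 and passed the FDR (adjusted p = 0.0299), as it also did in the deposited table, at -0.54 (adjusted p = 0.0345). With the array median it was -0.30 (adjusted p = 0.153) and with the strip as a block -0.23 (adjusted p = 0.362), both short of the FDR. Rbm24, which encodes an activator of muscle exons needed for sarcomere assembly, had 4.32, 4.59 and 4.60 with exercise and 4.48, 4.19 and 4.05 without. Exercise mouse 1 lay below sedentary mouse 1, so the groups overlapped. The log2 fold change was 0.27 (standard error 0.15, 95% interval -0.089 to 0.62, adjusted p = 0.237), and it turned negative without scaling.

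PTBP1 represses exons of differentiated muscle and neurons and is highest in dividing cells. Ptbp1 had a log2 signal of 0.96, 1.24 and 1.08 with exercise and 1.01, 1.04 and 1.03 without. The sedentary arrays fell within the range of the exercise arrays. The log2 fold change was 0.066 (standard error 0.098, 95% interval -0.17 to 0.30, limma adjusted p = 0.654). Its sign was not stable, since it turned negative in the deposited table, without scaling and with the mean of the 2 Ptbp1 probes.

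Of 21 probes for the 10 genes, 19 were kept and each of these was well above background on all 6 arrays, and 7 genes had more than 1 kept probe. Adjusted over all 32726 kept probes by limma, 4 of the 19 passed the FDR, beside 16.2% of all kept probes, with 3 higher (10.5% of all) and 1 lower (5.65%). The second Rbfox1 probe read 4.18, 4.06 and 4.17 with exercise and 3.74, 3.32 and 3.21 without. Here too every exercise value exceeded the sedentary ones and mouse 1 was the highest of the latter, with a log2 fold change of 0.72 (adjusted p = 0.0322). The second Rbm20 probe read -1.81, -1.52 and -1.39 with exercise and -1.05, -1.06 and -1.01 without. Here the sedentary arrays were close together and the log2 fold change of -0.53 passed the FDR (adjusted p = 0.0384), whereas the brighter Rbm20 probe did not (adjusted p = 0.0571).

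The second Rbfox2 probe also had all exercise arrays below all sedentary ones, with a log2 fold change of -0.28 (limma adjusted p = 0.0859). The second Mbnl1 probe did not separate the groups. It read 0.081, -0.021 and 0.20 with exercise and 0.10, -0.20 and -0.37 without, so that sedentary mouse 1 lay within the exercise group, and its log2 fold change was 0.24 (adjusted p = 0.266). With the mean of both probes, Mbnl1 had a log2 fold change of 0.36 and missed the FDR (adjusted p = 0.0928). All 4 Celf2 probes had negative log2 fold changes, from -0.093 to -0.25, and none passed. The 2 Ptbp1 probes had opposite signs, 0.066 and -0.38 (adjusted p = 0.662 and 0.165).

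**Figure D2:**
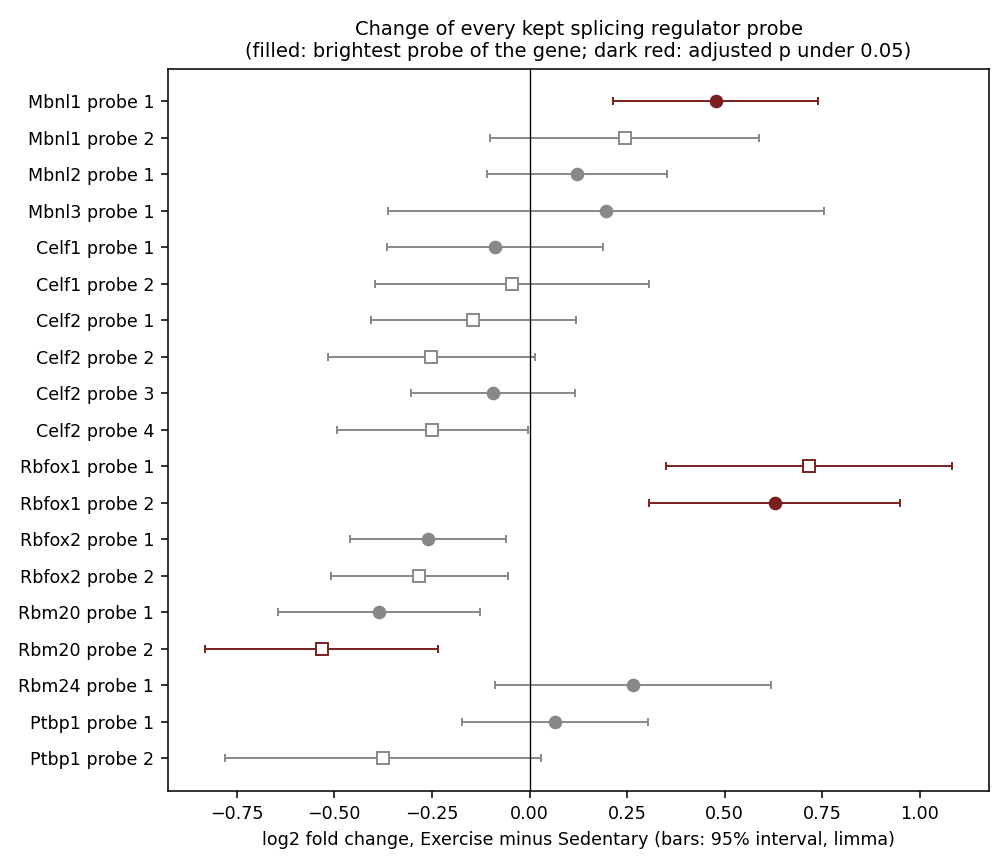
Log2 fold change of exercise against sedentary with its 95% interval (limma, n = 3 per group) for each of the 19 kept probes, where a filled symbol is the brightest probe of its gene and dark red an adjusted p under 0.05. Both Rbfox1 probes lie to the right of 0, at 0.63 and 0.72, both Rbm20 and both Rbfox2 probes lie to the left, and the second Mbnl1 probe at 0.24 has an interval that includes 0.

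The difference between 2 genes within 1 array does not depend on how arrays are scaled by a single factor. Genes of the same family were therefore compared in this way, centred on the mean over the 6 arrays. Rbm24 was also set against Rbm20, a pair not chosen as members of 1 family. Rbfox2 minus Rbfox1 was -0.44, -0.36 and -0.53 on the exercise arrays and 0.22, 0.64 and 0.47 on the sedentary arrays. The groups had to be apart here, since every exercise array was higher for Rbfox1 and lower for Rbfox2. The shift between the group means was -0.89 on the log2 scale. Against sedentary mouse 1 alone, in the strip of the exercise arrays, the shift was -0.66. Rbm24 minus Rbm20 was 0.23, 0.41 and 0.34 with exercise and 0.074, -0.43 and -0.62 without. These groups were also apart, with a shift of 0.65, but sedentary mouse 1 lay close to the exercise arrays and the shift against it alone was 0.25. Celf2 minus Celf1 shifted by -0.0040 and Mbnl3 minus Mbnl1 by -0.28, both with overlap. No test was applied to these differences, and each shows unequal change of 2 genes and not which of them changed. The share of gene pairs over the whole array with groups apart was not counted.

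**Figure D3:**
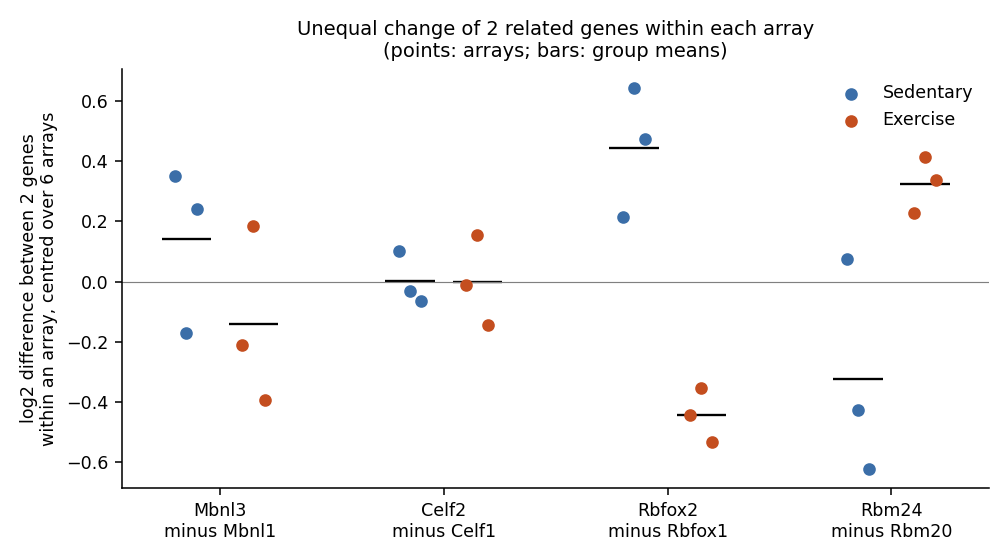
Log2 difference between 2 genes within each array, centred over the 6 arrays, for sedentary (blue) and exercised (orange) mice, with group means as bars. The pairs are of 1 family except Rbm24 and Rbm20. For Rbfox2 minus Rbfox1 the exercise arrays lie between -0.53 and -0.36 and the sedentary arrays between 0.22 and 0.64, whereas Celf2 minus Celf1 overlaps.

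The scaling between arrays decided which of the 10 genes were called. The median log2 fold change of everything tested was 0.026 with the 75th percentile, 0.11 with the array median, -0.13 in the deposited table and -0.45 without scaling. Relative to this median, Rbfox1 was higher by 0.60 and Mbnl1 by 0.45 in all 4, since each multiplies an array by 1 factor. Relative to the median, Rbfox2 was at -0.29 and Rbm20 at -0.41. Taken as they stand, Rbfox1 and Mbnl1 were at 0.47 and 0.32 in the deposited table (limma adjusted p = 0.0679 and 0.0979) and at 0.16 and 0.0034 without scaling. With quantile normalization they were at 0.40 and 0.30 (adjusted p = 0.0816 and 0.0850). The calls of Rbfox1 and Mbnl1 as higher thus held with the 75th percentile, whether of all probes or of those detected on every array, and with the array median, and were lost with the other 3.

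**Figure D4:**
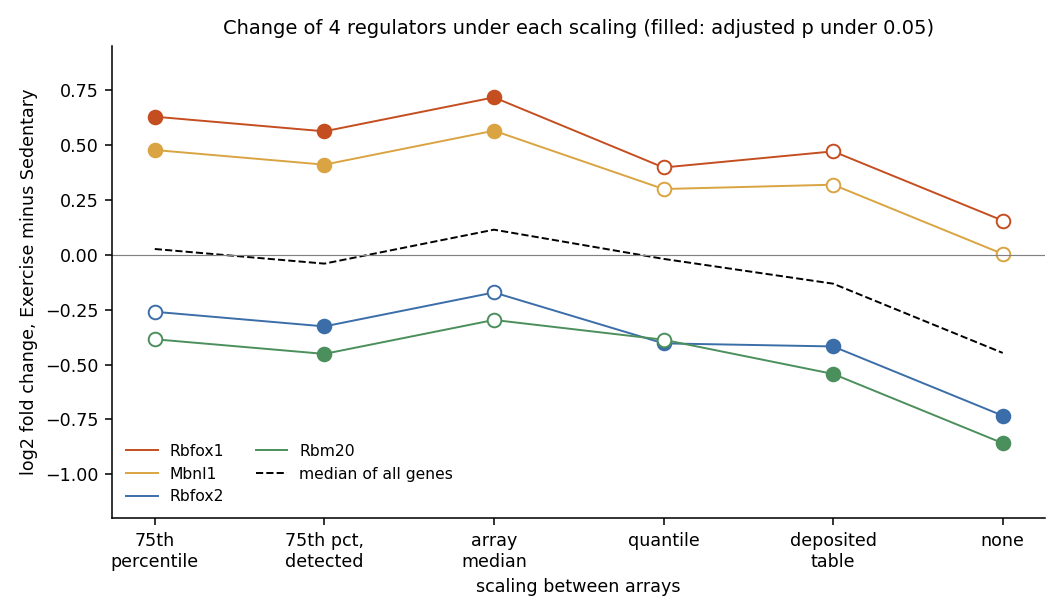
Log2 fold change of Rbfox1, Mbnl1, Rbfox2 and Rbm20 under 6 ways of scaling the arrays, with filled symbols for an adjusted p under 0.05 (limma) and a dashed line for the median of all genes tested. Rbfox1 and Mbnl1 lie above the dashed line and Rbfox2 and Rbm20 below it under each scaling, but which of them pass the threshold changes. Except for quantile normalization, each scaling uses a single factor per array, so the distances from the dashed line had to be equal.

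Single arrays and the strip mattered as well. Leaving out sedentary mouse 1 raised the log2 fold change of Rbfox1 to 0.76 (limma adjusted p = 0.0112) and that of Mbnl1 to 0.57 (adjusted p = 0.0150). Leaving out any other array ended both calls, with Rbfox1 between 0.55 and 0.65 (adjusted p from 0.0750 to 0.110) and Mbnl1 between 0.42 and 0.49 (adjusted p from 0.0839 to 0.124). In those 5 fits at most 1 of all genes and transcripts passed the FDR, although 6686 to 8146 had an unadjusted p under 0.05. Against sedentary mouse 1 alone, Rbfox1 was higher by 0.37, Mbnl1 by 0.29 and Rbm24 by 0.026, while Rbfox2 was at -0.29 and Rbm20 at -0.23. With the strip as a block, which makes the same comparison, the adjusted p was 0.202 for Rbfox1 and 0.242 for Mbnl1, and 3 of all tested were called.

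Other regulators of muscle splicing were followed in a list of 70 genes, of which 68 were tested. In this list 1 gene was higher and 5 were lower past the FDR, that is 1.47% and 7.35% of those tested beside 11.5% and 6.12% of everything tested. A negative log2 fold change was found for 49 of the 68, beside 47.1% of everything tested, and the median of the list was -0.12. The kinase gene Clk1, whose product phosphorylates SR proteins, read 1.91, 1.66 and 1.89 with exercise and 2.62, 2.72 and 2.97 without, far apart, and fell by 0.95 (limma adjusted p = 0.0234). Its second probe also had a log2 fold change of -0.95. Tia1, whose product helps U1 bind weak splice sites, fell by 0.68 (adjusted p = 0.0234), with -0.66 on its second probe. Rbm4b fell by 0.97 (adjusted p = 0.0318) and Rbmx by 0.65 (adjusted p = 0.0331), but the other Rbmx probe had 0.071. Rbm4b was dim, with means of -3.25 and -2.29, and with normexp background correction its log2 fold change was -0.21 and missed the FDR (adjusted p = 0.0931), while against sedentary mouse 1 alone it was -0.59. Rbm5, the remaining gene that passed, fell by 0.50 and is named after its value was seen. Esrp1, an epithelial regulator that was dim on all arrays, was higher by 0.49 (adjusted p = 0.0315). With quantile normalization the counts were 2 higher and 13 lower.

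The core spliceosome, which all introns need, was represented by 35 genes, of which 5 were higher and 1 lower past the FDR, with a median of -0.015. These are 14.3% and 2.86% of the list, beside 11.5% and 6.12% of everything tested. Snrpb, a subunit of the Sm ring, was higher by 0.58 (limma adjusted p = 0.0307) and its other probes gave 0.57 and 0.59. Snrpc of U1 was higher by 0.51 (adjusted p = 0.0269), Lsm2 by 0.44 (adjusted p = 0.0473), Snrpd2 by 0.39 (adjusted p = 0.0297) and Lsm4 by 0.35, the last named after its value was seen. Snrnp70 of U1 fell by 0.32 (adjusted p = 0.0424). The split of this list rested on the scaling, since quantile normalization gave 0 higher and 5 lower.

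Genes with exons known to be controlled by these regulators were represented by 40 genes, and 39 could be tested. Past the FDR there were 11 higher and 2 lower, 28.2% and 5.13% of those tested beside the same 11.5% and 6.12%, with a median of 0.26. The probes read total transcript, so these values say nothing of the splicing of the exons. Tnnt3 stands in this list and among the fibre markers below, of which 9 of 10 were higher past the FDR. Whether target genes differ from fibre genes at large was not tested. With quantile normalization the counts of this list were 5 higher and 4 lower. Atp2a1, the calcium pump SERCA1, read 6.84, 6.75 and 7.08 with exercise and 6.03, 5.61 and 5.39 without, and was higher by 1.21 (limma adjusted p = 0.0234). Ldb3 of the Z-disc was higher by 1.08 (adjusted p = 0.0234) and the tropomyosin genes Tpm1 and Tpm2 by 1.01 and 0.85 (adjusted p = 0.0236 for both). For Ldb3 the other probe gave 0.17, and for Tpm1 the other probes gave 0.24 and 0.39. Mapt, which encodes the microtubule protein tau, fell by 0.55 (adjusted p = 0.0445).

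**Figure D5:**
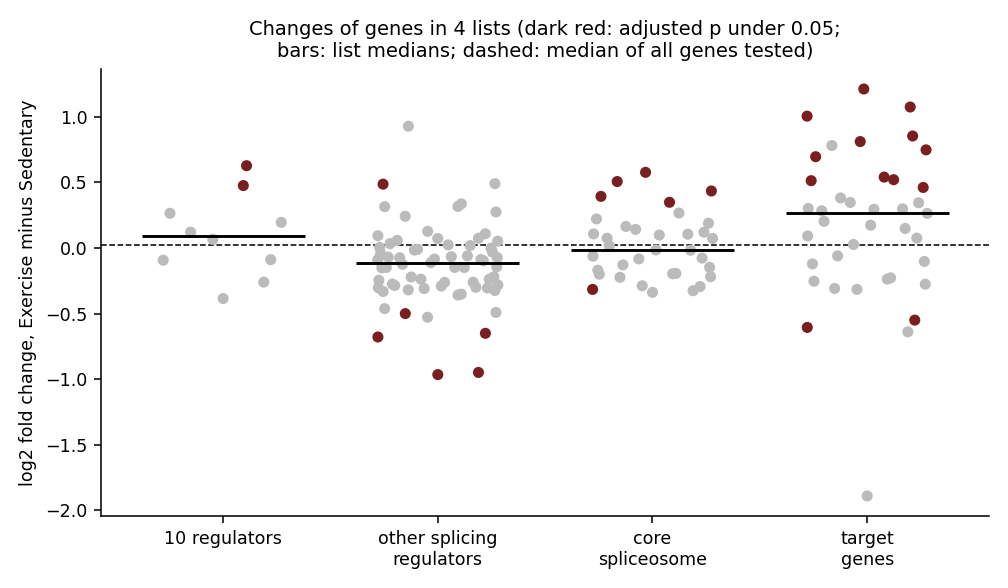
Log2 fold change of exercise against sedentary for every tested gene of 4 lists, with dark red for an adjusted p under 0.05 (limma), bars for list medians and a dashed line for the median of everything tested. Target genes have a median of 0.26, while the other splicing regulators have one of -0.12 and the core spliceosome one of -0.015.

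Markers of some cell types moved between the groups beside these genes. Their counts are to be read beside everything tested, of which limma called 11.5% higher and 6.12% lower past the FDR. An unadjusted p under 0.05 was found for 37%. Of 10 markers of skeletal muscle fibres, all detected, 9 were higher past the FDR, and their summed signal was 5308 to 6062 times the 75th percentile on the exercise arrays and 2398 to 3543 times on the sedentary arrays. Of 7 tested markers of satellite cells and myoblasts, 0 were higher and 2 lower past the FDR by limma and 4 had an unadjusted p under 0.05, with a summed signal of 16.6 to 19.5 and 22.6 to 27.8, and the eighth, Myf5, was not kept. Of 13 markers of denervated or embryonic fibres, 12 were lower in sign and 1 higher, and 9 of the lower and the higher one passed the FDR. The higher one, Myh8, was at -0.71 on its other probe, and Myh3, among the lower, at 0.92 on its other probe. Myog stands in this list and in that of satellite cells and myoblasts. Of 11 macrophage markers 0 passed the FDR by limma and 0 had an unadjusted p under 0.05, and their summed signal was 63.9 to 77.2 and 64.1 to 76.3. Sedentary mouse 1, the sedentary array closest to the exercise group for Rbfox1 and Mbnl1, also had the highest summed signal of fibre markers among the sedentary arrays. The part of these markers, and of the unscaled signal that was lower on every exercise array, in the values of the 10 genes was not tested.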

How the data were processed

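The authors labelled quadriceps RNA of 6 mice with Cy3, hybridized it to SurePrint G3 mouse arrays and deposited 1 scanner file per array from Agilent Feature Extraction 12.1.0.3. The deposited processed signal is an intensity on a linear scale after background and spatial correction. The authors also deposited a table of all arrays, in which each column is that intensity multiplied by 1 factor per array, between 1.33 and 1.88. The tool named for differential expression, iDEP, was not used here.

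Control spots (3671 of 62976) and outlier spots were left out, spots of a probe were averaged, and the array's 75th percentile of log2 signal was subtracted. Probes with a missing value (22 of 56605) were dropped. Of the rest, 32726 were well above background on 3 or more of the 6 arrays and were kept, and no spot was saturated. Probes were named by matching transcript accessions to a RefSeq table, which named 34577, whereas 22028 kept the identifier of the file. The brightest probe by mean represented its gene.

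The 3 exercise and 3 sedentary arrays entered a linear model per gene in limma (version 3.58.1, R version 4.3.3), with moderated two-sided tests from eBayes. The Benjamini-Hochberg adjustment ran over 25005 genes and transcripts. The procedure was also run on simulated arrays, with changes larger than those of the 10 genes and no effect of array or strip. That run cannot check the calls made here. The number of arrays limits the precision. The genes and lists were chosen with earlier results of these data known. Of each list of splicing genes, the 4 largest rises and 4 largest falls past the FDR were named, except 1 gene that is not reported here. Normexp background correction took the median signal of a spot, with the offset set to 50. Alternatives were other scalings, filters, probe rules and thresholds, each array left out, replicate or strip as a block, array weights, and eBayes with trend and robust.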

Additional observations from a re-analysis of the deposited data

How the results depend on the processing

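The number of arrays, 3 per group, limited every value, and the probes used for the 10 genes were well above background on all arrays. The cause of the changes below was not tested, except that a single factor per array moves all genes alike. Of the 10 splicing regulators, 2 were higher and 0 lower past the FDR (limma). Higher and lower were 0 and 1 with quantile normalization, 0 and 5 without scaling, 0 and 2 in the deposited table, 1 and 1 with the mean of probes, and 0 and 0 with the fold change minimum added. Lower became 2 with the 75th percentile of detected probes, no filter, array weights, trend and robust, or an FDR of 0.1, and 1 with normexp, the filter on all arrays or the probe of largest SD. Leaving out 1 array gave 0 to 2 higher and 0 to 1 lower.

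For the other splicing regulators (1 higher and 5 lower), the counts were 2 and 13 with quantile normalization, 0 and 51 without scaling, 0 and 17 in the deposited table, 4 and 21 with normexp, 2 and 11 without filter, 7 and 20 with array weights, 2 and 16 with trend and robust, 5 and 16 at an FDR of 0.1, and 0 and 0 with the fold minimum. Higher was 2 with the array median, and lower was 8 with detected probes, the filter on all arrays or the largest SD. For target genes (11 and 2) they were 5 and 4, 5 and 15, and 7 and 6 in the first 3 settings, 18 and 7 with array weights, 17 and 4 with trend and robust, 17 and 6 at an FDR of 0.1, and 3 and 0 with the fold minimum. Lower was 9 with normexp, 1 with the array median and 4 with detected probes or the filter on all arrays. For the core spliceosome (5 and 1) they were 0 and 5, 0 and 22, and 0 and 6 in the first 3, 3 and 0 with the array median, 3 and 3 with detected probes, and 0 and 0 with the fold minimum. Lower was 7 with normexp or array weights, 3 without filter or with the filter on all arrays, and 5 with trend and robust or at an FDR of 0.1. Leaving out 1 array gave 0 to 3 and 0 to 10 other regulators, 0 to 14 and 0 to 4 targets, and 0 to 4 and 0 to 2 core genes.

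Replicate numbers are shared by the groups, but no label says that they pair the mice. Deviations of arrays with the same number correlated at 0.015, 0.085 and 0.036, and 3 of 6 arrays correlated best with their own number. With so few arrays these values cannot settle whether mice were paired. With the replicate block 0 genes were called in any of these lists and in all (lowest adjusted p = 0.0606, and 8591 with an unadjusted p under 0.05). With the strip block 0 were called in the lists.

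Among the 10 splicing regulators, signs turned only for genes that had not passed the FDR. Mbnl2 was at -0.059 with quantile normalization, -0.35 without scaling and -0.036 in the deposited table, and Mbnl3 at -0.28 without scaling and -0.20 with the strip block. Celf1 was at 0.0025 with the strip block and Rbm24 at -0.21 without scaling. Ptbp1 was at -0.41 without scaling, -0.00066 with detected probes, -0.092 in the deposited table, -0.15 with the mean of probes, -0.38 with the largest SD and between -0.0081 (without exercise mouse 2) and 0.13 with 1 array left out. Of the 25 called genes of the other 3 lists, 4 turned without scaling, where the median of all was -0.45. Lsm2 was then at -0.038, Snrpd2 at -0.079, Lsm4 at -0.12 and the target gene Capzb, named after its value was seen, at -0.011.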

Other observations

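Markers of other cell types were also followed, and their values stand here without a comparison to the splicing genes. Of everything tested, 17.6% passed the FDR by limma in either direction and 37% had an unadjusted p under 0.05. Of 7 fibroblast, 8 endothelial and 4 red blood cell markers tested, 0 passed the FDR by limma and 0 had an unadjusted p under 0.05, with median log2 fold changes of -0.020, 0.0067 and 0.54. Of 7 Schwann cell markers all were lower in sign, 1 past the FDR, with a median of -0.33. Adipocyte markers (7) had a median of -0.78, although the 1 that passed was higher. Of 5 smooth muscle markers, 1 was higher and 1 lower past the FDR and 4 had an unadjusted p under 0.05. Myh11 fell by 0.95 (limma adjusted p = 0.0234), while Acta2 was higher by 1.32 (adjusted p = 0.0234) on its brightest probe and at -0.89 and -0.80 on its other probes. Of 5 motor neuron markers tested 1 passed, Nefh, which was lower with exercise. It was well above background on 3 sedentary and 0 exercise arrays, so it was kept only through the group where it was brighter. Its pass is therefore not read as a result. Of 7 lymphocyte markers tested 1 passed, Lck, which fell by 0.69 (adjusted p = 0.0266). These 4 genes were named after their values were seen.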
